A study of Saccharomyces cerevisiae with 12 samples.

Results

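The tagged strain HCM1HA, treated with doxycycline for 4 h and compared with the same strain without doxycycline, was measured on 2 dye-swapped arrays of a set of 12. Both arrays were taken by their titles, each log2 ratio was read as doxycycline over none, each array was centred on its median, and an ORF was kept when it had a value on both. This left 2495 of the 6174 ORFs on the arrays. Both channels held RNA of strain GRB2405, which is the MATa strain CML128, mutant in URA3, HIS4, LEU2 and TRP1, carrying HCM1-3HA::natMX4, so the tag and the auxotrophic markers were shared by treated and untreated cells. HCM1 was under its own promoter here, and this strain carries no tet promoter in the labels. Cells grew in YPD at 30 °C until an A600 of 0.5. The labels give neither the drug's dose nor its vehicle, and they do not say whether the untreated culture was kept in parallel for the same time.

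The series asks which genes depend on Hcm1, a forkhead transcription factor that acts in S phase, by switching HCM1 with a tet promoter that doxycycline represses. Doxycycline on a strain without that promoter is the control for effects of the drug and its time. Doxycycline is a tetracycline that blocks bacterial ribosomes, and in eukaryotic cells tetracyclines are known to act on mitochondrial translation and to bind metal ions. In budding yeast, cytosolic ribosomal protein genes and the general stress genes, many of which are driven by Msn2 and Msn4, are known to move in opposite directions when growth conditions change. Iron uptake genes answer to Aft1 and Aft2, and amino acid synthesis genes to Gcn4.

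The 4 h arrays covered fewer ORFs than the deletion and tet arrays. Exp 1, with the treated RNA in Cy5, held 2838 ORFs, and Exp 2, with the treated RNA in Cy3, held 3644. Of the ORFs in the table, 343 had a value on Exp 1 alone, 1149 on Exp 2 alone and 2187 on neither. Across the 2495 shared ORFs the Pearson correlation between the arrays was 0.53 and 65.9% of ORFs had the same sign on both; ORFs are not independent replicates. The median SD of the 2 arrays was 0.26 on the log2 scale, and the middle 50% of ORFs had a mean log2 ratio between -0.27 and 0.33. The difference between Exp 1 and Exp 2, which holds the dye effect, correlated across ORFs with that of the deletion arrays at 0.58 (2433 ORFs) and with that of the tet strain without over with doxycycline at 0.56 (2353 ORFs). Neither of those comparisons shares an RNA sample with the 4 h arrays, but all use the same array design and dyes.

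HCM1 itself had no value on Exp 1 and a log2 ratio of 0.50 on Exp 2, so 4 h of doxycycline over none rests on a single array for this gene. After 10 h of doxycycline over none in the same strain HCM1 had 1.37 and 0.68. In the tet strain without over with doxycycline HCM1 had log2 ratios of 5.79 and 5.51. Of the neighbours of HCM1 on chromosome III, TVS1 had log2 ratios of -0.72 on Exp 1 and -1.19 on Exp 2, and SED4 had 0.53 and -0.24. Of the 7 a-cell marker genes none had a value on both arrays; STE2, the alpha-factor receptor of a cells, had 0.16 on Exp 2. Of the 6 alpha-cell marker genes only SAG1 had both values, at -0.89 and 0.06. The markers therefore could not check the labelled mating type on these arrays. LEU2, a marker gene that both channels carry in mutant form, had -0.31 and -0.41.

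A dye swap of a pair of RNA samples is 1 replicate, so the comparison had no spread of its own between cultures. The limma test took the residual from the other 2 control comparisons, tagged over wild type and 10 h of doxycycline over none. With it 0 of 2307 tested ORFs (0%) passed at an adjusted p of 0.05 (Benjamini-Hochberg), and the smallest adjusted p was 0.99. At an unadjusted p under 0.05, 53 ORFs (2.3%) passed. On simulated data the test recovered only 10 of 50 ORFs changed by a log2 of 2. The count of 0 therefore does not show an absence of change. The 10 h comparison in that residual carried differences of its own, which widened it. With that comparison left out of the residual 69 ORFs passed, and with 4 h and 10 h as one coefficient 337 passed. The 4 h values below are therefore described by their size on both arrays, with no call by a test.

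**Figure D1:**
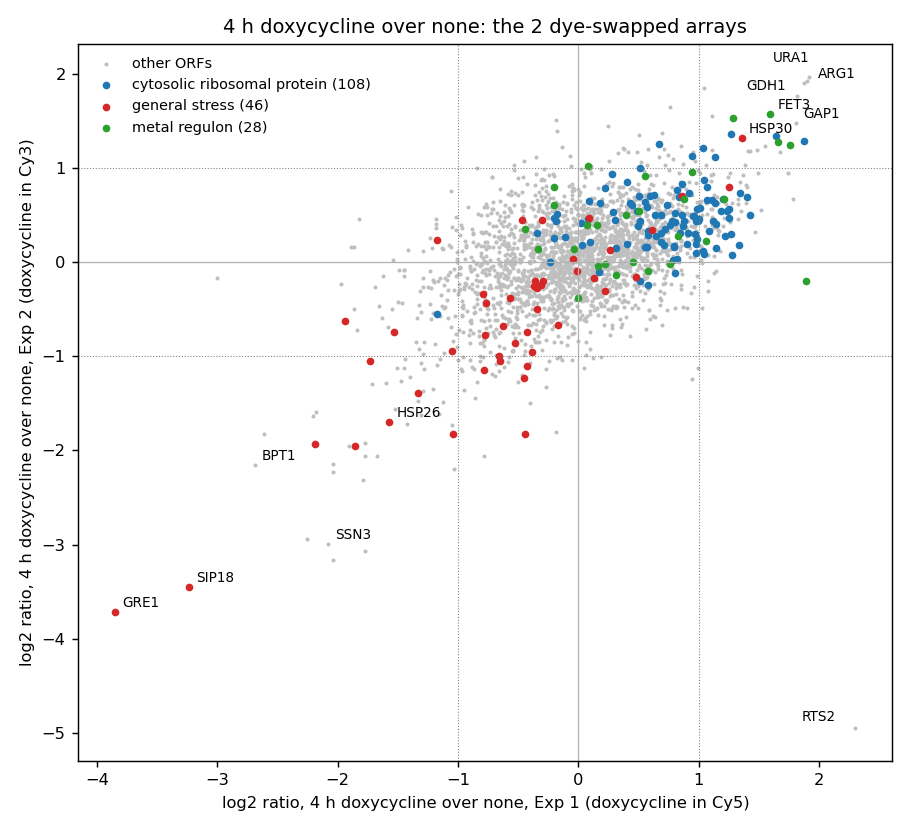
Each point is 1 of 2495 ORFs, with its centred log2 ratio of 4 h doxycycline over none on Exp 1 (x axis) and on Exp 2 (y axis); dotted lines mark a log2 ratio of 1 and -1. Cytosolic ribosomal protein genes (blue) lie mostly to the upper right, general stress genes (red) mostly in the lower left, and RTS2 stands alone at the lower right with opposite signs.

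By size, 27 ORFs (1.08%) were at least 2-fold higher with doxycycline on both arrays and 44 (1.76%) were at least 2-fold lower. Above 0 on both arrays were 908 ORFs (36.4%), and below 0 on both were 735 (29.5%). These shares of all ORFs are the background for the list counts below. Values close to the 2-fold line show what it separates. RPL15B (1.03 and 1.21) and NSR1 (1.38 and 1.04) lay just inside it on the higher side, and FCY2 (0.99 and 0.98) and RSM26 (0.97 and 1.08) just outside. On the lower side SIZ1 (-1.15 and -1.02) and the ORF YDL172C (-1.44 and -1.03) lay just inside, and PKP1 (-0.999 and -1.03) and MET30 (-1.29 and -0.98) just outside. The genes next to the line were picked by that position alone.

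By the smaller of the 2 arrays, the 4 highest ORFs were URA1, ARG1, GDH1 and GIT1. URA1, the dihydroorotate dehydrogenase of pyrimidine synthesis, had log2 ratios of 1.91 on Exp 1 and 1.97 on Exp 2, a mean of 1.94 ± 0.04 (SD of 2 arrays) or 3.85-fold. ARG1, the argininosuccinate synthetase of arginine synthesis, had 1.90 and 1.92, a mean of 1.91 ± 0.02 or 3.76-fold. GDH1, the NADP-dependent glutamate dehydrogenase that assimilates ammonium, had 1.87 and 1.91, a mean of 1.89 ± 0.02 or 3.70-fold. These 3 genes had nearly the same ratio in both dye orientations. GIT1, a permease for glycerophosphoinositol, had 1.81 and 1.77. GAP1, the general amino acid permease, had 1.81 and 1.48. In the tet strain without over with 10 h of doxycycline, GAP1 had 1.47 and 1.49 and URA1 1.20 and 0.96, so both were lower in that strain's treated cells, while GDH1 had -0.10 and -0.43.

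Of the Gcn4 target genes, which serve amino acid synthesis, 40 of 62 were measured, 26 were above 0 on both arrays and 6 below, with a median log2 ratio of 0.43 against 0.04 over all ORFs. Besides ARG1, none was 2-fold higher on both arrays. ILV2, the acetolactate synthase of branched-chain synthesis, had 1.13 and 0.72, ILV3 of the same pathway 1.21 and 0.47, and ARG4 of arginine synthesis 0.78 and 0.80. Of the nitrogen and proline use genes 16 of 26 measured were above 0 on both arrays and 3 below, with a median of 0.28. AGP1, an amino acid permease of broad range, had 0.79 and 1.10, and GDH3, a minor glutamate dehydrogenase, 1.20 and 0.38. Of the phosphate starvation genes 11 of 15 measured were above 0 on both arrays and 2 below, with a median of 0.46. VTC3, a subunit of the polyphosphate polymerase, had 0.76 and 1.65, PHO3, a constitutive acid phosphatase, had 1.40 and 0.80, and PHM7 lay on the other side at -1.05 and -0.95.

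Purine, pyrimidine and one-carbon genes did not lie together. Of 28 measured, 15 were above 0 on both arrays and 4 below, and the median was 0.24. GUA1, the GMP synthase, had log2 ratios of 1.10 and 0.93 and FCY2, the purine-cytosine permease, 0.99 and 0.98. ADE17, an enzyme of purine synthesis, had -1.05 and -1.73, at least 2-fold lower on both arrays. Sulphur and methionine genes were similarly divided, with 8 of 16 above 0 on both arrays, 5 below and a median of 0.25. SAM1, an S-adenosylmethionine synthetase, had 1.55 and 1.23, whereas HOM3, the aspartate kinase at the start of threonine and methionine synthesis, had -0.97 and -0.41.

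Metal regulon genes were mostly higher. Of 28 measured, 16 were above 0 on both arrays and 1 below, where 36.4% and 29.5% of all ORFs were. At least 2-fold higher were 4, against 1.08% of all ORFs, and the median log2 ratio was 0.41. FET3, the multicopper oxidase of high-affinity iron uptake, had 1.59 on Exp 1 and 1.57 on Exp 2, a mean of 1.58 ± 0.01 or 2.99-fold. SIT1, a transporter of iron bound to siderophores, had 1.66 and 1.28. FIT2, a cell wall protein that helps retain siderophore iron, had 1.76 and 1.24, and FRE7, a metal reductase that copper shortage induces, had 1.29 and 1.53. The arrays split over FIT1, a protein of the same kind as FIT2, which had 1.89 on Exp 1 and -0.20 on Exp 2. In the tet strain without over with doxycycline FET3 had -0.65 and -0.94, SIT1 -0.53 and -0.32, and FRE7 -0.55 and -0.51. These genes were higher in the treated cells there too, by less. FIT2 went the other way, at 0.79 and 0.46. Turned to doxycycline over none, the 27 list members measured there had a median of -0.13, against 0.41 here.

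The machinery of cytosolic translation was higher as a group. Of 108 measured cytosolic ribosomal protein genes, 96 were above 0 on both arrays and 1 was below. The median log2 ratio was 0.61, and it was 0.80 on Exp 1 and 0.45 on Exp 2. In the deletion over wild type, without doxycycline, these genes had a median of 0.27 against 0.07 over all ORFs. In the tet strain, turned to doxycycline over none, they had 0.14 against -0.04. The ranking of single genes is limited by paralogs, since many of these genes have a near-identical copy whose RNA can bind the same probe. At least 2-fold higher on both arrays were RPL3 (1.87 and 1.29), RPL6B (1.64 and 1.35), RPL6A (1.27 and 1.37), RPL5 (1.13 and 1.12) and RPL15B (1.03 and 1.21), all of the large subunit. Translation factor genes had medians of the same size, with 25 of 29 above 0 on both arrays, 1 below and a median of 0.57. YEF3, the fungal elongation factor 3, had 1.15 and 0.69, EFT1, a gene of elongation factor 2 with an identical-protein copy, had 1.46 and 0.32, and PRT1, a subunit of initiation factor 3, had 0.59 and 0.93.

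Ribosome biogenesis genes depended on the array. Of 26 measured, 12 were above 0 on both arrays and 4 below, with a median log2 ratio of -0.02 on Exp 1 and 0.58 on Exp 2. NSR1, a nucleolar protein of rRNA processing, had 1.38 and 1.04, NOP56 had 0.95 and 1.17, CBF5 0.84 and 0.95, and NOP58 0.85 and 0.85; the last 3 are core proteins of the small nucleolar RNPs.

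Tetracyclines are known for mitochondrial ribosomes, and the nuclear genes for mitochondrial translation were therefore followed as a group. None of the 19 mitochondrially encoded genes of the list had a row in the table analysed here. Of 44 measured mitochondrial ribosomal protein genes, 27 were above 0 on both arrays and 3 below, with a median log2 ratio of 0.39 and no member 2-fold on both arrays. In the tet strain, turned to doxycycline over none, 41 of them had a median on the other side, at -0.36 against -0.04 over all ORFs. In the deletion over wild type, 43 had a median of 0.21 against 0.07 over all ORFs. RSM26 (0.97 and 1.08), RSM23 (0.74 and 1.14) and MRPS9 (0.92 and 0.85), all of the small subunit, and MRPL23 (1.13 and 0.65) of the large were furthest from 0. TUF1, the mitochondrial elongation factor Tu, had 1.67 and 1.17, a mean of 1.42 ± 0.36 or 2.68-fold. The mitochondrial translation factor list, which includes TUF1, had 7 of 24 measured above 0 on both arrays, 6 below and medians of -0.29 on Exp 1 and 0.36 on Exp 2. MEF1, a mitochondrial elongation factor G, had 0.84 and 0.78, MSS116, a helicase for mitochondrial introns, 0.69 and 1.38, and OXA1, which inserts proteins into the inner membrane, -0.85 and -0.38.

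Genes for respiration were higher by smaller amounts. Of 33 measured respiratory chain and ATP synthase genes 23 were above 0 on both arrays and 3 below, with a median log2 ratio of 0.24. In the tet strain, turned to doxycycline over none, 32 of them had a median of -0.33. NDI1, the internal NADH dehydrogenase, had 1.10 and 0.87, and CYC1, the main cytochrome c, 0.89 and 0.69. Of 13 measured TCA cycle genes 10 were above 0 on both arrays and 1 below, with a median of 0.30. PYC1, a pyruvate carboxylase, had 1.24 and 0.91. At least 2-fold higher on both arrays were also 2 mitochondrial carriers, YHM2 for citrate and oxoglutarate (1.46 and 1.90) and GGC1 for GTP and GDP (1.43 and 1.18). The retrograde response list, named for signalling from damaged mitochondria, had 8 measured genes, 6 of them above 0 on both arrays and 1 below. The member furthest from 0 was the lower one, ATO3, at -0.86 and -1.44. The list's members PYC1 and IDH2 (0.76 and 0.73) are also on the TCA list. CIT2, the peroxisomal citrate synthase often used as a reporter of this response, had 0.88 and 0.18.

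Among membrane and surface proteins, PMA1, the plasma membrane proton pump, had log2 ratios of 1.49 and 1.20, and HSP30, a stress protein of that membrane known to restrain the pump, had 1.36 and 1.32. YHB1, the flavohaemoglobin that removes nitric oxide, had 1.58 and 1.91, a mean of 1.75 ± 0.23 or 3.35-fold. INO1, the inositol phosphate synthase and the standard reporter of phospholipid control, had 1.41 and 1.18, and CHO1, the phosphatidylserine synthase, 1.01 and 0.95. With them, 12 of 20 measured fatty acid and phospholipid genes were above 0 on both arrays, 1 was below and the median was 0.38. Ergosterol genes differed less, with 12 of 23 above 0 on both arrays, 3 below and a median of 0.09.

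General stress genes had more 2-fold lower members than any other list. Of 46 measured, 33 were below 0 on both arrays and 6 above, 8 were at least 2-fold lower, and the median log2 ratio was -0.58 (-0.45 on Exp 1 and -0.56 on Exp 2). GRE1, a hydrophilin of dehydration stress, had the lowest mean of all 2495 ORFs, with -3.85 on Exp 1 and -3.72 on Exp 2, or 7.27% of the untreated level. SIP18, a related protein of osmotic and desiccation stress, had -3.24 and -3.45, or 9.84% of the untreated level. PAI3, the cytoplasmic inhibitor of proteinase A, had -2.19 and -1.94. The arrays agreed closely on these genes, with SDs of 0.09, 0.15 and 0.18. Less RNA per cell and fewer cells holding the RNA cannot be told apart in such bulk RNA.

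The other 2-fold lower members carried known protective or alternative metabolic roles. GND2, the minor 6-phosphogluconate dehydrogenase, had log2 ratios of -1.85 and -1.96. CTT1, the cytosolic catalase, had -1.33 and -1.38, or 39.0% of the untreated level. HSP26, a small heat shock protein, had -1.57 and -1.70, or 32.2% of the untreated level. SPI1, a cell wall protein induced by weak acids, had -1.04 and -1.83, and SPG1, a gene named for stationary phase, -1.73 and -1.05. HSP30 was the member that lay 2-fold on the higher side. In the tet strain without over with doxycycline HSP26 had 3.43 and 4.05 and SPI1 1.73 and 1.94. CTT1, with 0.41 and 0.14, and GND2, with 0.17 and 0.49, had the same sign there at smaller size. These genes were therefore lower in treated cells there too, where HCM1 also fell. Without doxycycline, the tet strain over the own-promoter strain had 3.02 and 2.91 for HSP26 and 1.68 and 1.37 for SPI1. In that ratio CTT1 had 0.09 and -0.25, and GND2 had -0.23 on Exp 1 alone. How much of the tet strain values came from the drug itself was not tested.

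Further lower genes were not on that list. TKL2, the minor transketolase, had log2 ratios of -1.79 and -2.31, and YBR116C, the ORF numbered next to it and not named by the gene table, had -2.26 and -2.94. FDH1, formate dehydrogenase, had -2.04 and -2.14, or 23.4% of the untreated level. HBT1, a protein of cell shape, had -1.68 and -2.06. Of 28 measured glucose-repressed carbon genes 14 were below 0 on both arrays and 8 above, with a median of -0.19. Their extremes lay on both sides, with YAT1, a carnitine acetyltransferase, at -1.33 and -1.47, and MAL32, a maltase, at 1.11 and 1.19; MAL12, its near-identical copy, had 1.12 and 0.94 and is not an independent measurement. ADY2, the acetate transporter, had -1.19 and -0.87.

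**Figure D2:**
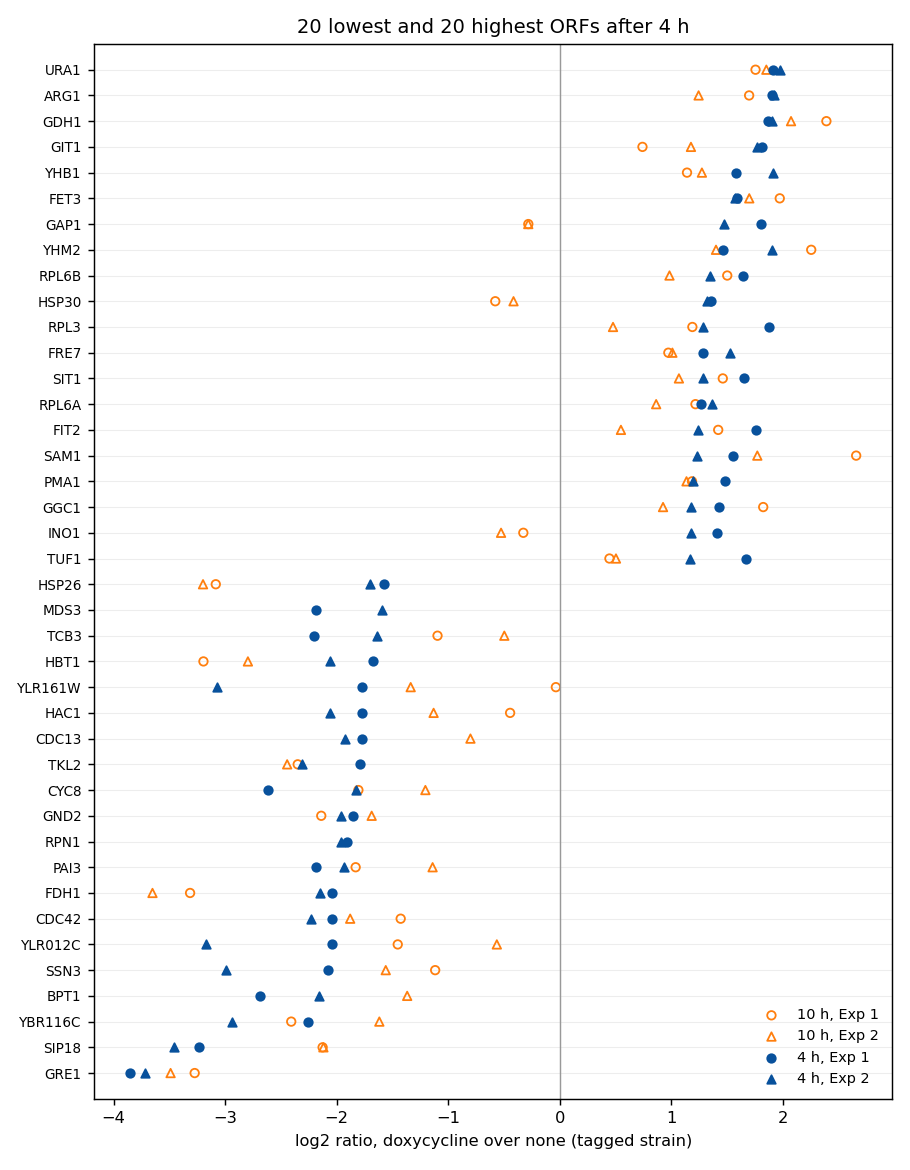
Log2 ratio of doxycycline over none in the tagged strain for the 20 lowest and the 20 highest ORFs, ranked by the smaller of the 2 arrays at 4 h; filled blue symbols are 4 h, open orange symbols 10 h, circles Exp 1 and triangles Exp 2. GAP1, HSP30 and INO1 lie above 1 at 4 h and below 0 at 10 h, and GRE1 lies below -3 on all 4 arrays.

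The rest of the 20 lowest ORFs had varied roles. The chromatin and transcription regulator list, which holds SSN3 and CYC8, had 7 of 22 measured above 0 on both arrays and 9 below. SSN3, the kinase of the Mediator complex, had log2 ratios of -2.08 and -3.00, and CYC8, the corepressor that works with Tup1, had -2.61 and -1.83. BPT1, a vacuolar ABC transporter, had -2.69 and -2.16, RPN1, a base subunit of the proteasome, -1.90 and -1.96, and TCB3, a tether between the endoplasmic reticulum and the plasma membrane, -2.21 and -1.63. CDC42, a regulator of cell polarity, had -2.04 and -2.23, CDC13, the telomere-binding protein, -1.78 and -1.92, and HAC1, the transcription factor of the unfolded protein response, -1.78 and -2.06. The list of HAC1's own pathway lay nearer 0, where 3 of 9 measured were above 0 on both arrays and 2 below.

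Many of these ORFs were low on other arrays as well, whatever was compared. Of 32 lower ORFs with at least 5 values on the other arrays, 17 were below 0 on every one (53.1%), against 129 of 2409 of all ORFs (5.35%); some of those arrays share the untreated tagged strain with the 4 h arrays. Without the tagged over wild type array, whose direction is not settled, these were 19 of 32 (59.4%) and 185 of 2406 (7.69%). In the deletion over wild type, which shares no RNA sample, 35 of the lower ORFs were measured and 6 were at least 2-fold lower on both arrays, where 1.53% of all ORFs were; they were BPT1, RPN1, TCB3, MDS3, NSP1 and YLR012C. In the tet strain without over with doxycycline, which shares none either, 12 of 31 were at least 2-fold lower (2.16% of all ORFs), which in that ratio means a higher level in treated cells. RPN1 had -3.33 and -3.73 there and -2.35 and -2.70 in the deletion, BPT1 -3.09 and -3.79 there, and CYC8 -2.27 and -2.94. The 6 were 6 of 79 ORFs called in the deletion, and the 12 were 12 of 93 called in the tet comparison. The 17 ORFs below 0 on every other array had a median log2 ratio of -1.89 at 4 h, and the 15 others with enough values had -1.50. Lower ORFs were also often long, with 37.5% over 2000 bp of coding length against 17.4% of all, although length and log2 ratio were only weakly related over all ORFs (Spearman -0.12 on Exp 1 and 0.07 on Exp 2). The part of ORF length or array behaviour in these values was not tested. Without the 17, 27 of the 44 ORFs were left among the 2-fold lower, but 12 of these had under 5 values on the other arrays and were not assessed. Among the 12, YBR116C, PAI3 and SPG1 were below 0 on every other array that held them. On the other side, 3 of 25 higher ORFs with enough values were above 0 on every other array (12.0%), against 5.65% of all ORFs. GRE1, SIP18 and TKL2 had no value on the tagged over wild type, tet over own promoter and tet without over with doxycycline arrays and could not be placed in this way.

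**Figure D3:**
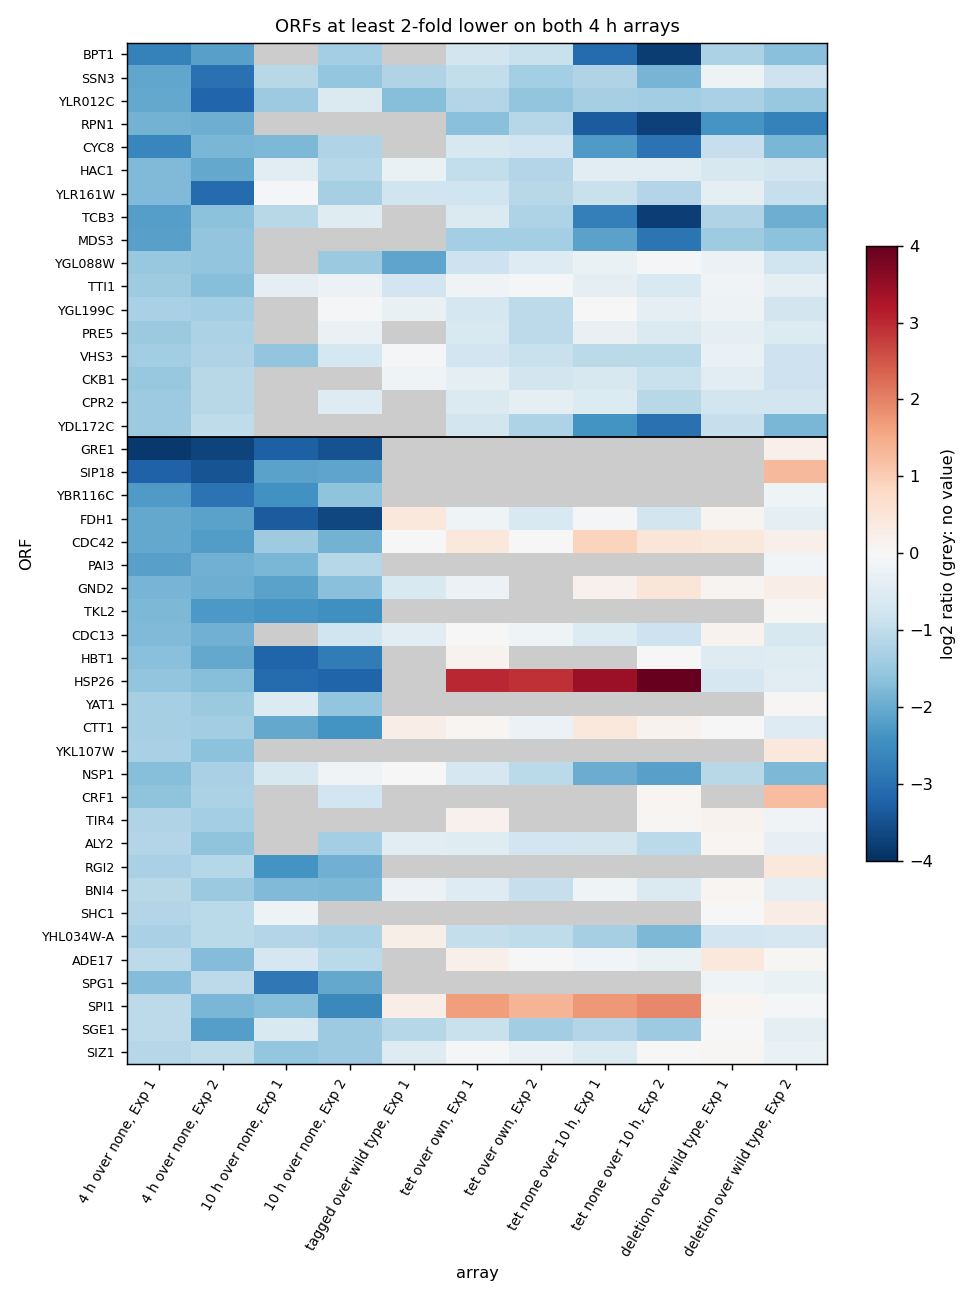
Log2 ratios (colour, grey where there was no value) of the 44 ORFs at least 2-fold lower on both 4 h arrays, on the 11 usable arrays, with each ratio as deposited in direction. The 17 ORFs above the black line are below 0 on every other array, BPT1, RPN1 and TCB3 most strongly in the tet strain without over with doxycycline, while HSP26 and SPI1 below the line are high there.

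The lists that bear on Hcm1 function and on the cell cycle held few measured members. Of 19 measured kinetochore and spindle genes 3 were above 0 on both arrays and 9 below, with a median log2 ratio of -0.19. TUB2, beta-tubulin, had -1.21 and -0.54, NUD1 of the spindle pole body -0.54 and -0.93, DAD4 of the outer kinetochore -0.48 and -0.82, and TUB1, alpha-tubulin, 0.76 and 0.63. Only 19 of the 79 genes of that list that are on the array had both values, so most of it was not measured here. The 7 measured S phase transcription regulators had a median of -0.30, with -0.27 on Exp 1 and -0.0034 on Exp 2, 2 members above 0 on both arrays and 3 below; FKH1, a forkhead factor of the G2/M programme, had 0.66 and 0.46, and PLM2 -0.27 and -0.64. G1/S cluster genes had a median of 0.14 over 16 genes, with the G1 cyclin CLN2 at 0.45 and 0.29. Histone genes had a median of 0.25 over 9 genes, with HTB1 at 1.01 and 0.63 and HHF2 at -1.15 and -0.16. Of 7 measured meiosis and sporulation markers 6 were below 0 on both arrays and none above, with a median of -0.44; IME1, the inducer of meiosis, had -0.95 and -0.29.

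The remaining protective lists had medians between -0.20 and 0.05. Pleiotropic drug resistance genes, which encode drug efflux pumps and their regulators, had 4 of 13 measured above 0 on both arrays and 6 below, with a median log2 ratio of -0.20. Its 2 members 2-fold lower on both arrays were BPT1 and SGE1 (-1.03 and -2.19), and both were also 2-fold lower in the tet strain without over with doxycycline. Oxidative stress defence genes had 5 of 20 above 0 on both arrays and 5 below, with TRR1, the thioredoxin reductase, at 0.92 and 0.50. Heat shock chaperone genes had 10 of 23 above and 9 below, with HSP60, the mitochondrial chaperonin, at 1.26 and 0.95 and SSA4, a heat-induced Hsp70, at -1.94 and -0.63. Proteasome genes had 11 of 32 above and 9 below.

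**Figure D4:**
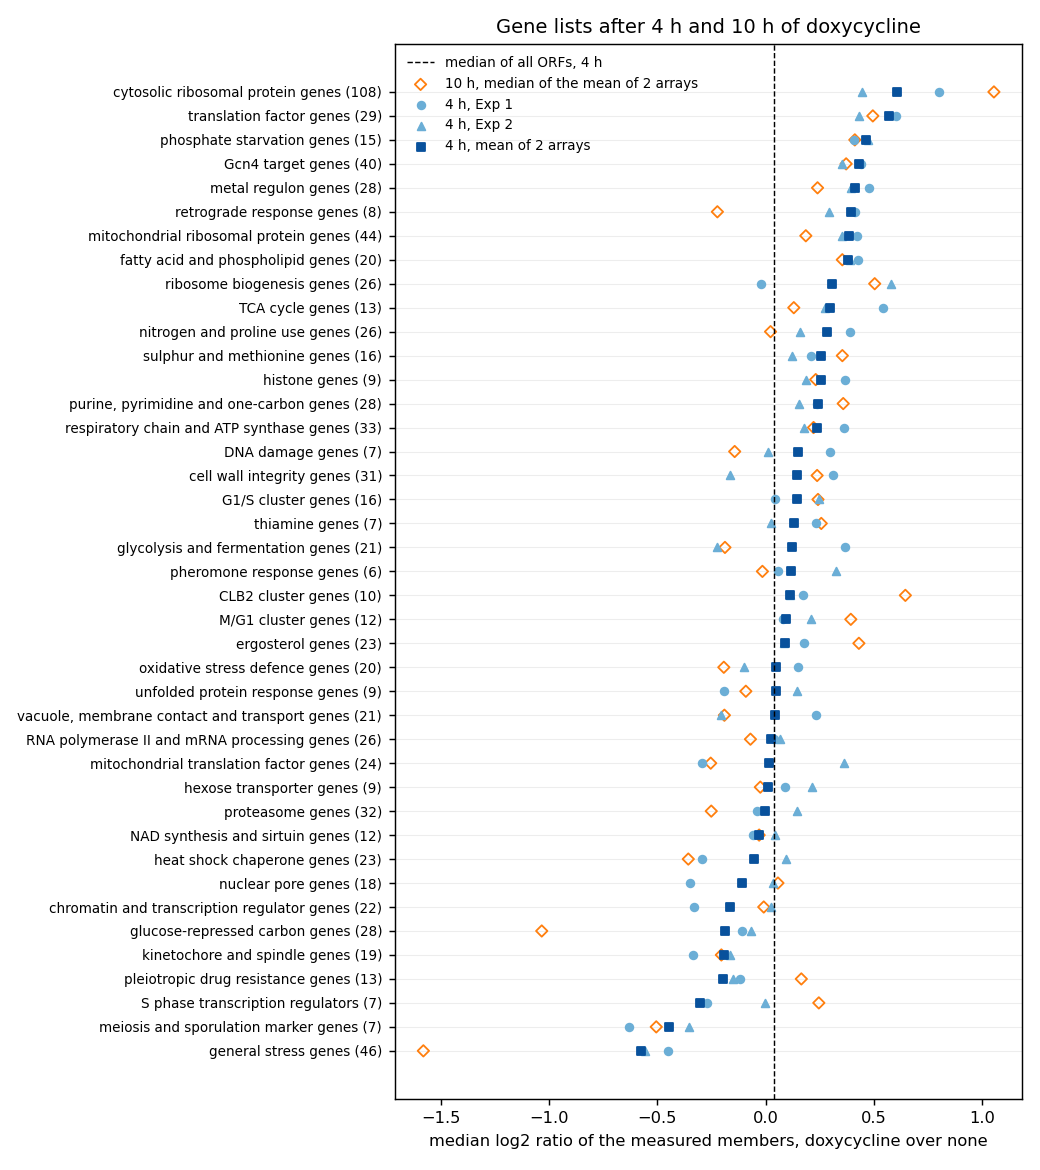
Median log2 ratio of doxycycline over none for each gene list with at least 5 measured members (number in brackets), at 4 h on Exp 1 (circles), on Exp 2 (triangles) and for the mean of both arrays (squares), with the 10 h median of the members measured at both times (diamonds). Cytosolic ribosomal protein genes stand at the top and general stress genes at the bottom, and the stress and glucose-repressed lists lie much lower at 10 h.

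The 10 h arrays compare the same strain with and without a longer exposure. They share the untreated tagged strain with the 4 h arrays, so the times are given side by side and their likeness is not a result. General stress genes had a median log2 ratio of -0.59 at 4 h over the 41 members measured at both times, and -1.58 at 10 h. Cytosolic ribosomal protein genes had 0.61 and 1.05 over 106 members, and glucose-repressed carbon genes -0.16 and -1.03 over 25. Metal regulon genes had 0.54 and 0.24 over 22, mitochondrial ribosomal protein genes 0.48 and 0.19 over 35, and ergosterol genes 0.09 and 0.43 over 21. Over all 1970 ORFs with both times the medians were 0.11 and 0.01.

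**Figure D5:**
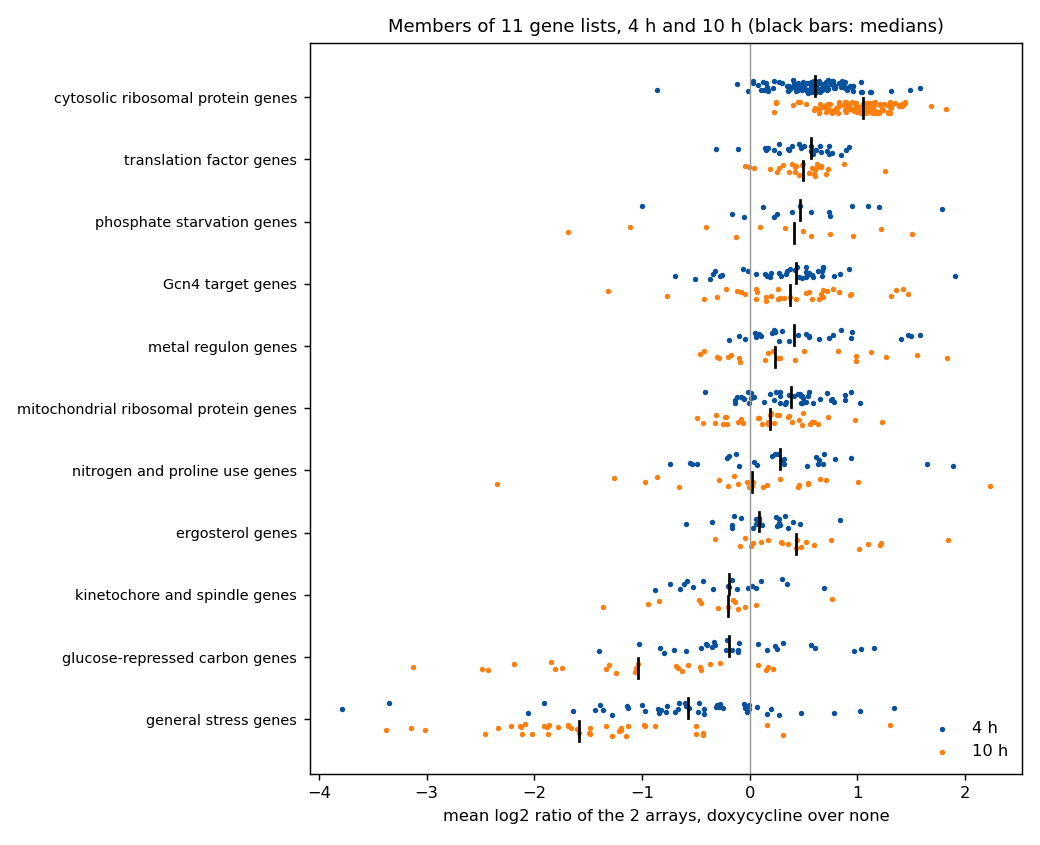
Mean log2 ratio of the 2 arrays, doxycycline over none, for every measured member of 11 gene lists, at 4 h (blue) and, where measured, at 10 h (orange), with black bars at the medians; vertical scatter within a row has no meaning. The general stress and glucose-repressed genes spread to -3 at 10 h, while the cytosolic ribosomal protein genes lie mostly above 0 at both times. At 4 h the means of these ribosomal protein genes run from -0.86 to 1.58, with 3 of 108 below 0.

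The difference between the times was tested with limma, with the residual from tagged over wild type alone. That residual was 1 array without its dye swap, so the dye effect stayed in it. The 4 h and 10 h values were means of 2 dye-swapped arrays. Of 1644 tested ORFs 47 passed at an adjusted p of 0.05 (2.86%), 36 lower (2.19%) and 11 higher (0.669%) at 10 h than at 4 h. The fit gave every ORF the same standard error of 0.47, so passing followed the size of the difference alone, from 1.55 upwards, and took no account of the spread of the 4 h and 10 h arrays. Of all 1970 ORFs with both times, both 10 h arrays lay above both 4 h arrays in 302 and below both in 585. Such separation was therefore common, and among ORFs that passed by size it gives no further support. In 45 of the 47 both arrays of 1 time lay beyond both of the other. The exceptions were RTS2 and TVP38, while FAA3, which encodes a fatty acyl-CoA synthetase, passed on log2 ratios at 10 h of 6.14 and 0.47. When each array was scaled to the same median absolute deviation, 0 passed.

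The genes lower at 10 h had varied roles, and those described here are examples. DIP5, a dicarboxylic amino acid permease, had log2 ratios of 0.22 and -0.29 at 4 h and -2.90 and -3.00 at 10 h. PGM2, the main phosphoglucomutase, had 0.86 and 0.71 at 4 h and -1.65 and -1.91 at 10 h. GAP1, after its 1.81 and 1.48 at 4 h, had -0.28 on both arrays at 10 h. PGM2 and GAP1 were above 0 on both 4 h arrays and below 0 on both 10 h arrays, and DIP5 lay near 0 at 4 h. Also passing were TPS1, trehalose phosphate synthase, at 0.48 and -0.15 and then -1.21 and -1.77, and GSY1, a glycogen synthase, at 0.09 and 0.47 and then -1.98 and -1.76. HSP30 had -0.58 and -0.41 at 10 h. YPS1, a cell surface protease, had 1.02 and 0.65 at 4 h and -2.01 and -1.96 at 10 h. GPA2, the G protein subunit of glucose signalling, had 0.75 and 0.32 and then -1.78 and -2.15.

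Among the 47 were 8 ORFs with no symbol in the gene table and nearly equal values, YMR046C and YMR051C among them; 6 of the 8 share a coding length of 1323 bp. Their mean log2 ratios lay between -0.98 and -0.60 at 4 h and between -2.99 and -2.55 at 10 h. Whether the 8 share sequence and so bind the same RNA was not tested, and they are not counted as separate findings. On the higher side at 10 h, HOM3 had -0.97 and -0.41 at 4 h and 1.18 and 1.45 at 10 h, and MUP1, the high-affinity methionine permease, had 0.65 and 0.43 and then 2.51 and 2.27. UTR2, a cell wall transglycosidase, had 0.70 and 0.40 and then 2.69 and 2.28. SRP40, a nucleolar protein, had -0.73 and -0.95 and then 0.77 and 0.97.

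Not every ORF with a large ratio kept its sign when the dyes were swapped. RTS2 had log2 ratios of 2.30 on Exp 1 and -4.95 on Exp 2. The same gene lay between 2.10 and 3.65 on all 6 Exp 1 arrays of the series and between -4.95 and -2.50 on the 4 Exp 2 arrays that held it and were used, so its ratio followed the dye. Of the 2495 ORFs 852 had opposite signs on the 2 arrays, most of them with small values. By chromosome, named from the R64 gene table, the median log2 ratio ran from -0.20 over 60 ORFs of chromosome IX to 0.12 over 169 ORFs of chromosome X and 243 of chromosome XII.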

How the data were processed

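The deposited values are log2 ratios of 12 2-colour arrays, normalized by the authors before deposit; for method and software, nothing is given in the sources used here. Per the labels, the dyes Cy5 and Cy3 were coupled to cDNA after its synthesis from total RNA. The ratio's base was read from the values, since 2 raised to each value of the 4 h arrays fell on a grid of 0.001. Each array was centred on its median (0.09 and 0.07 as deposited for the 4 h arrays). The depth of a 2-colour array is unknown here, and 2 arrays limit the precision. Symbols came from a RefSeq gene table of assembly R64, which matched 2411 of the 2495 ORFs. No sequences are given.

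Values are means of the 2 dye-swapped arrays. The design text speaks of a swap per RNA sample, so the pair is 1 replicate; the labels do not say whether Exp 1 and Exp 2 came from separate RNA. The second column of tagged over wild type mirrors the first (correlation -0.999) and was not used; which of them runs in the labelled direction is not settled, and the residual does not depend on it. Tests used limma 3.58.1 in R 4.3.3 (lmFit and eBayes, Benjamini-Hochberg over all tested ORFs), checked on simulated data with 50 changed ORFs at each size of change. The 4 h test recovered 1 of 50 at a log2 change of 1, 10 at 2 and 38 at 5, with 3 false calls. The test between times recovered 18, 48 and 50, with 4 false calls. Its simulated noise had the same SD for every ORF, as that test assumes. Uneven noise, such as that of FAA3 at 10 h, was not simulated, so these recoveries may not hold for the data. P-values measure the spread between these comparisons, which may be technical. The residual takes any real difference in a control comparison for noise. Alternatives covered centring, scaling, quantile normalization, ORF filters, coding length, dye effect, residual, replicate unit and fold threshold.

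The comparison and the 45 gene lists were chosen with earlier results of these data known. Named genes are HCM1 and its neighbours, the 20 highest and 20 lowest ORFs, any ORF that passed at 4 h, the 4 members of each list furthest from 0 and its 2-fold members, the 6 largest sign conflicts between arrays, the 6 largest differences between times in each direction, and marker genes; the text names those it needs. Genes named outside the rule, after their values were seen, are the neighbours of the 2-fold line and, among ORFs that differed between times, TPS1, GSY1, SRP40, TVP38, YMR046C and YMR051C.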

Additional observations from a re-analysis of the deposited data

Results flagged for a closer look

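By limma, 17 of the genes named by rule passed for a difference between 10 h and 4 h. They are among the 47 of 1644 tested ORFs (2.86%) that passed. Every ORF had the same standard error, so passing followed the size of the difference alone. The naming rule itself took the largest differences between times. DIP5, BAG7, YPS1, PGM2, GPA2, MUP1, UTR2 and FAA3 were named for that alone, and HOM3 and YLR161W partly for it. For these genes passing follows from how they were picked and gives no further support. The log2 difference, 10 h minus 4 h, was -2.91 for DIP5, -2.88 for BAG7, -2.82 for YPS1, -2.57 for PGM2, -2.50 for GPA2, -2.22 for CIT2, -2.0 for HXT2, -1.92 for GAP1, -1.83 for HSP30 and -1.75 for NUP53. It was 1.60 for YLR012C, 1.63 for RTS2, 1.74 for YLR161W, 1.85 for MUP1, 1.94 for UTR2, 2.00 for HOM3 and 3.34 for FAA3. BAG7 had log2 ratios of -0.26 and 0.06 at 4 h and -2.95 and -3.02 at 10 h. CIT2 had 0.88 and 0.18 at 4 h and -1.81 and -1.56 at 10 h, and HXT2, a glucose transporter, had 0.99 and 0.64 and then -1.01 and -1.36. NUP53, a nucleoporin, had -0.997 and -0.72 and then -2.63 and -2.58. RTS2 and FAA3 had 10 h arrays far apart, and YLR012C and YLR161W were below 0 on every array with a value.

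Of 1970 ORFs with both times, 172 went from above 0 on both 4 h arrays to below 0 on both 10 h arrays. In the reverse direction there were 46. Among the genes named by rule, all arrays of 4 h lay on 1 side of 0 and all of 10 h on the other for 2 more. INO1 had a difference of -1.72 that was not tested, since the gene has no value on the tagged over wild type array. RNR4, a small subunit of ribonucleotide reductase, had a difference of -0.59, from 0.42 and 0.26 at 4 h to -0.07 and -0.44 at 10 h, and it did not pass (limma adjusted p = 0.88). Over the members measured at both times, 4 lists had medians above 0 on both 4 h arrays and below 0 on both 10 h arrays, which was not tested. Over all members measured at 4 h, the heat shock and proteasome medians were not above 0 (-0.05 and -0.001), so for these lists the pattern rests on which members had 10 h values. The difference in the median was -0.62 for the retrograde response genes, -0.43 for the heat shock chaperone genes, -0.33 for the proteasome genes and -0.29 for the DNA damage genes.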

How the results depend on the processing

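The 4 h count of 0 ORFs passing limma stayed at 0 under 11 of 15 alternatives. It was 69 with the residual without the 10 h comparison and 337 with 4 h and 10 h as one doxycycline coefficient. With arrays as units it was 485 with no replicate block and 1262 with the replicate block; the number marks the dye orientation, so the block removes the dye effect, and the pairing gives no second culture. The count of 47 between times was 0 with arrays scaled to one median absolute deviation, 82 with the length trend removed, and 209 and 743 with arrays as units without and with the replicate block. It was 1591 with the mirrored columns averaged, since the average leaves almost no residual. Leaving out 1 array of each pair gave 53 to 89 between times. The 27 higher and 44 lower ORFs became 127 and 128 at 1.5-fold, 4 and 19 at 3-fold, and 50 and 70 by the mean of both arrays. On a single array there were 72 to 130 higher and 153 to 179 lower. Lower ORFs numbered 14 among ORFs with a value on all 12 arrays and 27 without those below 0 on every other array, an alternative chosen after seeing the data. Of the 27, 12 had under 5 values on the other arrays and were not assessed. The causes of these shifts were not tested unless stated. Of 41 list medians, 9 changed sign without Exp 1, 3 without Exp 2, and 7 among ORFs with all 12 values; of 195 named genes, 10 and 8 changed sign without Exp 1 and Exp 2, and 3 as deposited. Promoter motifs were planned and not run, as no sequences were at hand. Signal over background was not used here, so its limit on low ratios cannot be stated.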
